A study of Mus musculus with 8 samples.

Results

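The organic osmolyte transport and response genes are 9 genes, chosen by gene name from the 55367 genes counted in whole kidneys. They are the carriers of betaine (*Slc6a12*), taurine (*Slc6a6*), and myo-inositol (*Slc5a3*), the sorbitol enzymes *Akr1b3* and *Sord*, the tonicity regulator *Nfat5*, the stress protein gene *Hspa4l*, and the urea transporters *Slc14a2* and *Slc14a1*. RNA-Seq compared 4 c-MafΔTAM mice (labelled Maf conditional KO) with 4 c-Maf fl/fl mice (labelled Maf flox/flox, the controls), to learn which kidney genes depend on the transcription factor c-Maf in the adult. All 8 were C57BL/6J mice labelled as 8 weeks old. Both groups carried c-Maf alleles flanked by loxP sites and received tamoxifen. The c-MafΔTAM mice also carried *CAG-Cre-ER*TM, a transgene that drives a tamoxifen-inducible Cre recombinase in most tissues. The control mice had no Cre, so an effect of active Cre and an effect of c-Maf loss cannot be told apart.

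Cells of the kidney medulla live in a salty, urea-rich interstitium, and they balance it by storing small organic osmolytes such as betaine, taurine, myo-inositol, sorbitol, and glycerophosphocholine. The carriers bring in betaine, taurine, and myo-inositol from outside, whereas aldose reductase makes sorbitol from glucose and sorbitol dehydrogenase turns it into fructose. Nfat5, also called TonEBP, is the transcription factor that raises the carriers and aldose reductase when the surroundings become hypertonic, by binding tonicity-responsive enhancers (TonE).

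Promoter sequences are shown for the TonE matches at genes that differed between the genotypes. RefSeq promoter windows on GRCm38.p6, from 250 bases before to 50 bases after each annotated start, covered 5 of the 9 members with 9 windows. A TonE match on either strand occurred in 1 of these 9 windows and in 4.96% of all 32851 windows of 300 bases. That window was 1 of 5 windows of *Slc6a12*, the betaine carrier. *Slc6a6*, the other member that was higher in c-MafΔTAM kidneys, was not analysed here for promoter sequence, and the single window of *Sord* holds no match. Of the genes outside the members, 3 that differed were searched, and a match occurred in 1 of 3 windows of *Slc6a13*, the carrier gene next to *Slc6a12*, and in 0 of 1 window each of *Akr1a1* and *Ranbp3l*. The promoters of the other genes described as differing, *Aldh7a1* and *Maf* among them, were not searched. Whether matches go with differences was not tested. Both sequences are the 250 bases before a RefSeq start on the plus strand, written 5′ to 3′, with the TonE match in capitals.
Slc6a12, chr6:121342324-121342573, plus strand: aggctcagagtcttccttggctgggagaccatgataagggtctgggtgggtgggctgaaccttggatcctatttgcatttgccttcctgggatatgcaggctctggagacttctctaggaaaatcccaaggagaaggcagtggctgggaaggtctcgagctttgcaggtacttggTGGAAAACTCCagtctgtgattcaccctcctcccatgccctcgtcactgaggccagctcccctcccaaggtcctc
Slc6a13, chr6:121303389-121303638, plus strand: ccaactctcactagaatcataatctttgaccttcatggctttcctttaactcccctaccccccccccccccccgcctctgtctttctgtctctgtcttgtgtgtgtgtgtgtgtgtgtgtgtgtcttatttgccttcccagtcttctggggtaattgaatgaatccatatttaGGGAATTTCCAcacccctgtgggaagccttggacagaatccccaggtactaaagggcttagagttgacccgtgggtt

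The match at *Slc6a12* spanned positions -75 to -65 from the RefSeq start and read along the plus strand. This start lies 502 bases before the first exon of *Slc6a12* in the counted annotation, so the window is outside the exons that gave the counts. The match at *Slc6a13* spanned positions -77 to -67 from an internal start and read along the minus strand, within an intron of the gene. Both matches contain the shorter letters TGGAAA, which were present in 21.4% of all windows. The letters TGCTGA, part of the Maf recognition element, were found in 1 of the 9 member windows, that of *Nfat5* at positions -157 to -152 on the minus strand, and in 19.5% of all windows. These matches describe letters only, and binding was not measured here.

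The libraries held 16649129 to 22990257 counted reads per mouse. In c-MafΔTAM mice *Maf*, the targeted gene, was at 9.06, 34.5, 29.6, and 10.1 CPM (counts scaled to a common library size) in mice 1 to 4, and in the controls at 379.9, 342.2, 305.4, and 351.1 CPM, a log2 fold change of -4.05 (SE 0.512, adjusted *P* = 0.0115 in edgeR's quasi-likelihood test). The call was lost in the 5 mice with high *Xist* alone, where the log2 fold change of *Maf* was -3.87 (adjusted *P* = 0.108), and with a replicate block (-4.28, adjusted *P* = 0.0516). Mitochondrial genes took 17.1% to 32.3% of the counts, with the highest share in c-MafΔTAM mouse 1. *Xist*, which is expressed from the inactive X chromosome of females, was nearly absent from c-MafΔTAM mouse 1 (2 counts) and from controls 3 and 4 (6 and 22 counts), whereas each of the remaining 5 mice had 17618 to 22387 counts. The sexes were therefore not balanced between the genotypes, and sex was not given in the labels. An extraction note in the labels names liver. The kidney tubule markers were abundant (summed thick limb markers 3262 to 5464 CPM), and the 6 hepatocyte markers summed to 3.10 to 14.5 CPM, with 2 of the 6 at 0 in all 8 mice.

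Across the 9 osmolyte genes, 2 were higher in c-MafΔTAM mice, 1 was lower, and 6 did not pass the test. A gene passed when its Benjamini-Hochberg adjusted *P* in edgeR's quasi-likelihood test, adjusted over all 20149 tested genes, was under 0.05. Among all tested genes 2.16% passed, 0.586% as higher and 1.58% as lower. The betaine carrier *Slc6a12* and the taurine carrier *Slc6a6* rose, whereas *Sord*, sorbitol dehydrogenase, fell. With a replicate block the directions held but the 3 calls were lost (adjusted *P* = 0.101, 0.220, and 0.102 in the same test). For these 3 genes the CPM of the 4 c-MafΔTAM mice did not overlap with those of the 4 c-Maf fl/fl mice, which was so for 9.79% of all tested genes. The log2 fold change was above 0 for 8 of the 9 members, among them the 6 that did not pass. It was above 0 for 10166 of all 20149 tested genes. The median was 0.28 over the members and 0.0027 over all tested genes. The RNA came from whole kidney, so fewer cells of a type and less RNA per cell cannot be told apart.

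**Figure D1:**
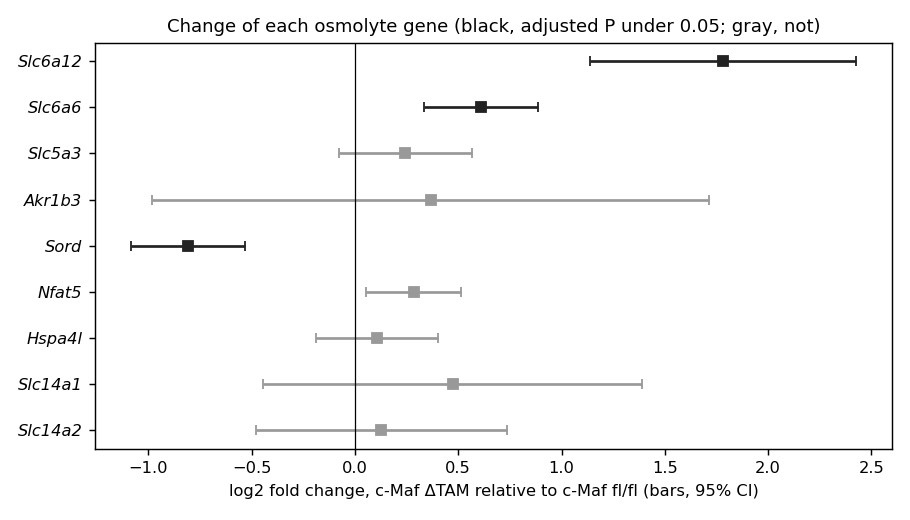
Log2 fold change of each of the 9 osmolyte genes in c-MafΔTAM relative to c-Maf fl/fl kidneys (x axis), with bars for the 95% confidence interval (n = 4 mice per genotype). Black marks the 3 genes with an adjusted *P* under 0.05, of which *Slc6a12* lies at 1.78, *Slc6a6* at 0.61, and *Sord* at -0.81, and gray marks the other 6.

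*Slc6a12* (chr6:121343076-121365775, plus strand) encodes the sodium- and chloride-coupled carrier of betaine and GABA. It had 63, 71, 71, and 111 counts in c-MafΔTAM mice 1 to 4 and 31, 23, 31, and 12 counts in controls 1 to 4. These are 3.21, 3.65, 3.94, and 6.01 CPM against 1.52, 1.04, 1.57, and 0.704 CPM. The lowest c-MafΔTAM mouse stood above the highest c-Maf fl/fl mouse by more than the spread of the controls. The c-MafΔTAM mean was 4.2 ± 1.24 CPM and the control mean 1.21 ± 0.414 CPM (SD, n = 4 each), a log2 fold change of 1.78 (SE 0.295, 95% CI 1.14 to 2.43, adjusted *P* = 0.00794), or 3.44-fold. The fold rests on 12 to 111 counts per mouse. The *Xist* classes gave the same order. Among the low-*Xist* mice, c-MafΔTAM mouse 1 had 3.21 CPM and controls 3 and 4 had 1.57 and 0.704 CPM, and in the 5 high-*Xist* mice alone the log2 fold change was 1.82 (adjusted *P* = 0.00376).

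*Slc6a6* (chr6:91684053-91759066, plus strand) encodes the sodium- and chloride-coupled taurine carrier. Its level was 762.6, 825.7, 695.5, and 658.2 CPM in c-MafΔTAM mice 1 to 4 and 417.2, 408.2, 554.0, and 547.9 CPM in controls 1 to 4. Each c-MafΔTAM mouse was above every control, and the low-*Xist* controls, mice 3 and 4, were the higher pair of their group. The c-MafΔTAM mean was 735.5 ± 74.0 CPM and the control mean 481.8 ± 79.9 CPM (SD, n = 4 each), a log2 fold change of 0.61 (SE 0.126, 95% CI 0.33 to 0.89, adjusted *P* = 0.0286), or 1.53-fold. In the high-*Xist* mice alone the log2 fold change was 0.81 (adjusted *P* = 0.000183). The call was lost on leaving out c-MafΔTAM mouse 2 (log2 fold change 0.55, adjusted *P* = 0.106), c-MafΔTAM mouse 3 (0.64, adjusted *P* = 0.0796), control mouse 1 (0.55, adjusted *P* = 0.0719), or control mouse 2 (0.54, adjusted *P* = 0.0859).

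The third carrier, *Slc5a3* (chr16:92058322-92087473, plus strand), brings myo-inositol into the cell with sodium. It had 577.8, 892.4, 691.0, and 894.9 CPM in c-MafΔTAM mice 1 to 4, and 690.1, 681.0, 680.5, and 531.2 CPM in controls 1 to 4. The ranges overlapped, with c-MafΔTAM mouse 1 below 3 of the 4 controls and control mouse 4 far below the other controls. The log2 fold change was 0.24 (SE 0.148, 95% CI -0.08 to 0.57, adjusted *P* = 0.509). *Mrps6*, a mitochondrial ribosome gene at the same locus, had a log2 fold change of 0.11 (SE 0.137, adjusted *P* = 0.788). Exon bases shared with other genes made up 1.46% of *Slc5a3* and 19.9% of *Mrps6*, and reads on such bases were not counted.

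**Figure D2:**
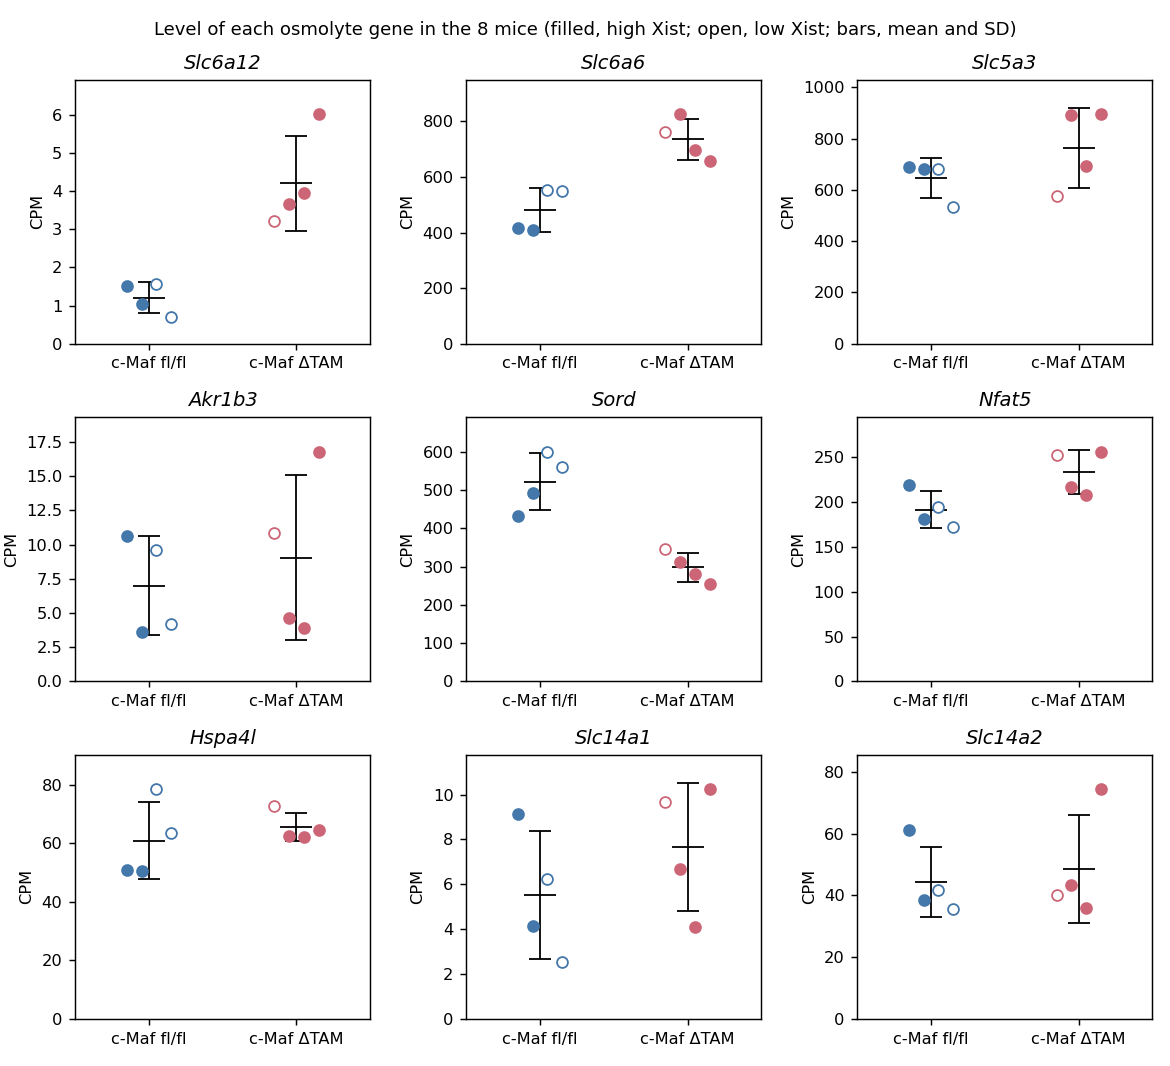
Level of each osmolyte gene in CPM (y axis, from 0) in the 4 c-Maf fl/fl (blue) and 4 c-MafΔTAM (red) kidneys, with 1 point per mouse, bars for the mean and SD, and open points for the 3 mice with low *Xist*. The points of the genotypes are apart for *Slc6a12*, *Slc6a6*, and *Sord* and overlap for the other 6 genes.

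The sorbitol enzymes make and break down the same osmolyte. *Sord* (chr2:122234749-122265340, plus strand), which oxidizes sorbitol to fructose, had 345.0, 311.1, 280.5, and 254.7 CPM in c-MafΔTAM mice 1 to 4 and 431.4, 493.5, 600.3, and 560.8 CPM in controls 1 to 4. All 4 c-MafΔTAM mice were below all 4 controls, and the highest c-MafΔTAM mouse and the highest controls were the low-*Xist* mice. With means of 297.8 ± 39.0 CPM in c-MafΔTAM and 521.5 ± 74.5 CPM in control mice (SD, n = 4 each), *Sord* fell by 0.81 on the log2 scale (SE 0.126, 95% CI -1.08 to -0.53, adjusted *P* = 0.00567), to 0.571 of the control level. In the high-*Xist* mice alone it fell by 0.71 on the log2 scale (adjusted *P* = 0.000367). Of the 36-base words in *Sord* transcripts, 34.6% also occur in other annotated genes, led by *Gm6652*, *Gm18159*, and *Gm6923*, and reads that matched several places were not counted, so its level is uncertain.

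*Akr1b3* (chr6:34302434-34317478, minus strand), aldose reductase, which makes sorbitol from glucose, had 10.8, 4.62, 3.88, and 16.8 CPM in c-MafΔTAM mice 1 to 4 and 10.6, 3.61, 9.59, and 4.16 CPM in controls 1 to 4. The mice split into a higher and a lower set within each genotype, and the groups overlapped. Mean levels were 9.03 ± 6.04 CPM in c-MafΔTAM and 7.00 ± 3.63 CPM in control mice (SD, n = 4 each). The log2 fold change of 0.37 (SE 0.575, 95% CI -0.98 to 1.71, adjusted *P* = 0.838) turned to -0.12 without c-MafΔTAM mouse 4. The 4 mice highest in *Akr1b3*, c-MafΔTAM mice 4 and 1 and controls 1 and 3, were also the 4 highest in the summed markers of the urothelium and papilla surface (*Upk1b*, *Upk2*, *Upk3a*, *Krt5*, and *Psca*), an order that rests on *Psca*. These markers summed to 19.2, 6.01, 6.16, and 31.2 CPM in c-MafΔTAM mice 1 to 4 and to 23.2, 9.43, 21.2, and 4.16 CPM in controls 1 to 4. Without *Psca*, the sum was 6.33 CPM in control 1 and 7.31 CPM in control 2, so control 1 was no longer among the 4 highest. None of the 5 markers passed edgeR's test (0 at an unadjusted *P* under 0.05). With the summed markers as a covariate, an alternative chosen after seeing the data, the log2 fold change of *Akr1b3* was 0.23 (adjusted *P* = 0.692). Of its 36-base words 14.7% occur in other genes.

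*Nfat5* (chr8:107293470-107379517, plus strand), the tonicity-activated transcription factor, had 253.0, 217.0, 207.8, and 256.4 CPM in c-MafΔTAM mice 1 to 4 and 219.0, 181.8, 194.2, and 172.2 CPM in controls 1 to 4. The groups met at 1 control, control mouse 1, which stood above c-MafΔTAM mice 2 and 3. The log2 fold change was 0.28 (SE 0.105, 95% CI 0.05 to 0.51), with an unadjusted *P* of 0.0197 and an adjusted *P* of 0.243 in edgeR's test, so it did not pass. The whole interval lay below the log2 fold change of *Slc6a12*.

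*Hspa4l* (chr3:40745382-40796103, plus strand), a chaperone of the Hsp110 family known to be induced by hyperosmolarity, had 72.7, 62.7, 62.1, and 64.6 CPM in c-MafΔTAM mice 1 to 4 and 50.8, 50.6, 78.4, and 63.7 CPM in controls 1 to 4. The high-*Xist* controls were the lowest pair and a low-*Xist* control was the highest mouse of all. The log2 fold change was 0.11 (SE 0.134, 95% CI -0.19 to 0.40, adjusted *P* = 0.788), and in the high-*Xist* mice alone it was 0.31 (adjusted *P* = 0.0526).

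The urea transporters did not pass the test. *Slc14a2* (chr18:78146148-78596942, minus strand), the transporter of the inner medullary collecting duct and thin limb, had 40.2, 43.4, 35.9, and 74.4 CPM in c-MafΔTAM mice 1 to 4 and 61.1, 38.7, 41.8, and 35.8 CPM in controls 1 to 4. Its log2 fold change was 0.13 (SE 0.264, 95% CI -0.48 to 0.74, adjusted *P* = 0.880), and it turned to -0.16 without c-MafΔTAM mouse 4, the highest mouse. *Slc14a1* (chr18:78100091-78142119, minus strand), the transporter of red cells and of descending vasa recta, had 9.67, 6.68, 4.10, and 10.2 CPM in c-MafΔTAM mice 1 to 4 and 9.12, 4.15, 6.24, and 2.52 CPM in controls 1 to 4. Its log2 fold change was 0.47 (SE 0.405, 95% CI -0.44 to 1.39, adjusted *P* = 0.671), and it was 0.08 in the high-*Xist* mice alone. The wide intervals of both genes allow changes in either direction.

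**Figure D3:**
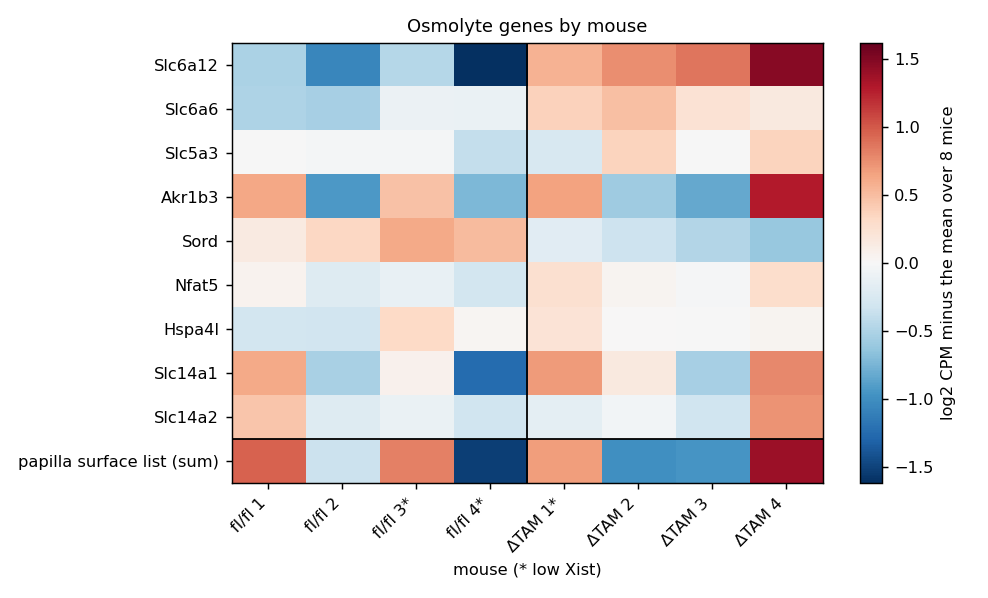
Level of each osmolyte gene in each mouse as log2 CPM minus the gene's mean over the 8 mice (color scale). The last row holds the summed markers of the urothelium and papilla surface, and asterisks mark the 3 low-*Xist* mice. *Slc6a12*, *Slc6a6*, and *Sord* change color at the line between genotypes, whereas *Akr1b3* is red in c-Maf fl/fl mice 1 and 3 and c-MafΔTAM mice 1 and 4, like the last row, whose order rests on *Psca*.

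Whether the difference of *Slc6a12* exceeded those of the other osmolyte genes was examined with within-mouse ratios of counts, which do not depend on how libraries are scaled. The log2 ratio of *Slc6a12* to *Sord* was -6.17 ± 0.570 in c-MafΔTAM and -8.78 ± 0.613 in control mice (SD, n = 4 each), a difference of 2.61. The ratio to *Slc6a6* differed least, by 1.18, and that to *Slc14a1* by 1.26. The ratio to *Nfat5* differed by 1.52, that to *Akr1b3* by 1.53, that to *Slc5a3* by 1.57, that to *Hspa4l* by 1.67, and that to *Slc14a2* by 1.70. In all 8 ratios the 4 c-MafΔTAM mice were above the 4 controls. Each ratio had *P* = 0.0286 in a two-sided exact permutation test, the smallest value that the 70 assignments of 8 mice can give, and the Benjamini-Hochberg adjusted value over the 8 ratios was the same. All 8 ratios share the counts of *Slc6a12*, so their separations and *P* values are not independent results. *Slc6a12* was also singled out with its higher level already known. The ratios are therefore only a description of how far its difference stood from those of the other members.

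**Figure D4:**
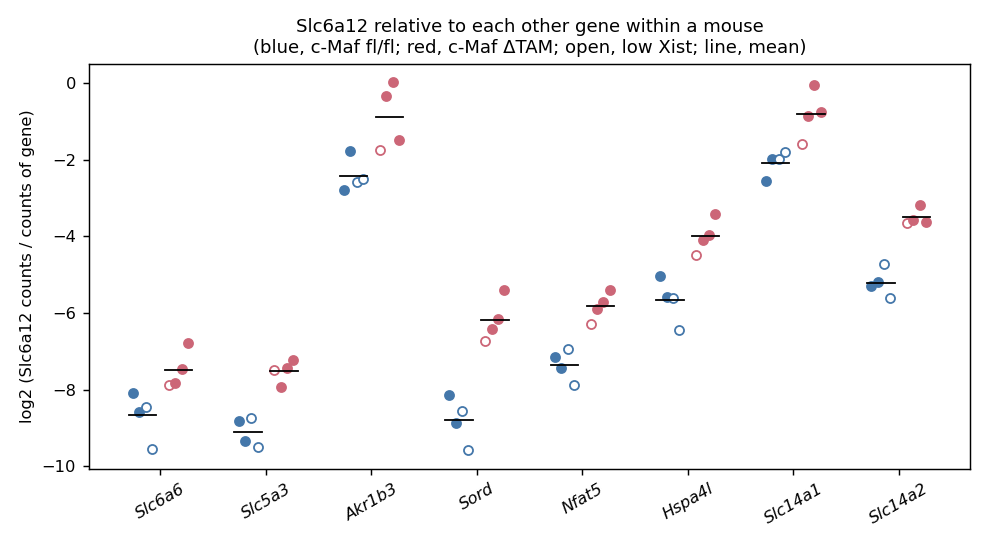
Log2 ratio of *Slc6a12* counts to the counts of each other osmolyte gene within a mouse (y axis), for c-Maf fl/fl (blue) and c-MafΔTAM (red) mice, with a line at each mean and open points for low *Xist*. The red points lie above the blue points for all 8 genes, with mean differences from 1.18 for *Slc6a6* to 2.61 for *Sord*.

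Per length, the members covered a wide range of levels. In control mice the mean RPKM, which is CPM divided by the kilobases of merged exon, was 221.7 for *Sord*, 59.2 for *Slc5a3*, 57.0 for *Slc6a6*, 10.4 for *Nfat5*, 8.58 for *Slc14a2*, 5.29 for *Hspa4l*, 1.38 for *Slc14a1*, 0.835 for *Akr1b3*, and 0.396 for *Slc6a12*. The ranges over the 4 controls overlapped between *Slc5a3* and *Slc6a6*, between *Nfat5* and *Slc14a2*, between *Slc14a1* and *Akr1b3*, and between *Akr1b3* and *Slc6a12*, and the other neighbors in this order were apart. In c-MafΔTAM mice the mean RPKM was 126.6 for *Sord*, 87.0 for *Slc6a6*, 70.01 for *Slc5a3*, and 1.38 for *Slc6a12*. The member with the largest fold change was thus the one with the lowest RPKM in the controls. Merged exons of long isoforms lower the RPKM of a gene whose main transcript is short, as for *Akr1b3* with 8384 exon bases.

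Genes related to the members were described by 4 lists. Of 18 genes for osmolyte synthesis, breakdown, and further carriers, 1 was higher and 2 were lower, and the median log2 fold change was 0.06. At an unadjusted *P* under 0.05 in edgeR's test, 4 of these genes were higher and 4 were lower, 8 of 18 in all, where 14% of all tested genes had such a *P*. *Slc6a13* (chr6:121300227-121337733), a GABA and taurine carrier that ends 5342 bases before *Slc6a12*, had 107.4, 128.2, 125.8, and 99.0 CPM in c-MafΔTAM mice 1 to 4 and 64.0, 84.2, 80.6, and 90.1 CPM in controls 1 to 4. All 4 c-MafΔTAM mice were above the controls, with a log2 fold change of 0.53 (SE 0.120, adjusted *P* = 0.0442) that passed in 3 of the 8 fits with 1 mouse left out and was lost without c-MafΔTAM mouse 2 or 3 or control mouse 1, 2, or 3 (adjusted *P* from 0.0843 to 0.161). Of the 36-base words, 0.669% in *Slc6a12* and 0.733% in *Slc6a13* occur in the other of these neighbors.

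*Aldh7a1*, which oxidizes betaine aldehyde to betaine and also acts in lysine breakdown, had 87.1, 105.3, 90.6, and 92.4 CPM in c-MafΔTAM mice 1 to 4 and 219.8, 238.5, 254.9, and 282.6 CPM in controls 1 to 4. It fell by 1.41 on the log2 scale (SE 0.101, adjusted *P* = 0.000019 in edgeR's test), and 9.19% of its exon bases, shared with other genes, gave no counts. *Akr1a1*, an aldehyde reductase of the same family as *Akr1b3*, had 424.2, 412.9, 356.9, and 373.5 CPM in c-MafΔTAM mice 1 to 4 and 803.0, 826.2, 1109, and 1063 CPM in controls 1 to 4. It fell by 1.28 on the log2 scale (SE 0.125, adjusted *P* = 0.000185). Both enzymes were lower in every c-MafΔTAM mouse than in every control and passed in 8 of 8 fits with 1 mouse left out. *Miox*, the inositol oxygenase that starts inositol breakdown and the list's most abundant gene, had 1158 ± 179.0 CPM in c-MafΔTAM and 1396 ± 104.2 CPM in control mice (SD, n = 4 each), a log2 fold change of -0.27 (SE 0.119, adjusted *P* = 0.337).

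Of 11 tested genes in the list for tonicity and protein folding, 1 was higher and 0 were lower (2 lower at an unadjusted *P* under 0.05 in edgeR's test, and 0 lower by adjusted *P* in DESeq2), with a median log2 fold change of -0.07. The gene that rose was *Ranbp3l*, which encodes a Ran-binding protein. It had 82.6, 85.6, 79.2, and 57.5 CPM in c-MafΔTAM mice 1 to 4 and 50.1, 37.4, 55.4, and 47.5 CPM in controls 1 to 4. The lowest c-MafΔTAM mouse, mouse 4, lay close to the highest control. The log2 fold change was 0.68 (SE 0.144, adjusted *P* = 0.0344), and the call was lost without any 1 of c-MafΔTAM mice 1, 2, and 3 and controls 1, 2, and 4 (adjusted *P* from 0.07 to 0.12). *Hspa4*, the most abundant chaperone of the list, had 181.4 ± 12.4 CPM in c-MafΔTAM and 176.1 ± 10.8 CPM in control mice (SD, n = 4 each), with a log2 fold change of 0.04 (SE 0.0855).

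Among 13 genes for cell volume channels and kinases, 0 passed in either direction (0 at an unadjusted *P* under 0.05 in edgeR's test, and 0 by adjusted *P* in DESeq2 and in the edgeR exact test), with a median log2 fold change of 0.02. A fit with *Xist* as a covariate and a fit of the 5 high-*Xist* mice alone each gave 1 lower gene in this list. Its most abundant gene was *Wnk1*, a kinase that senses chloride and cell volume, with a log2 fold change of 0.22 (SE 0.105, adjusted *P* = 0.375). Among 11 tested genes for urine concentration, 0 passed in either direction (0 at an unadjusted *P* under 0.05 in edgeR's test, and 0 by adjusted *P* in DESeq2 and in the edgeR exact test), with a median of 0.04. *Umod*, uromodulin of the thick limb and the list's most abundant gene, had a log2 fold change of -0.13 (SE 0.182, adjusted *P* = 0.816).

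**Figure D5:**
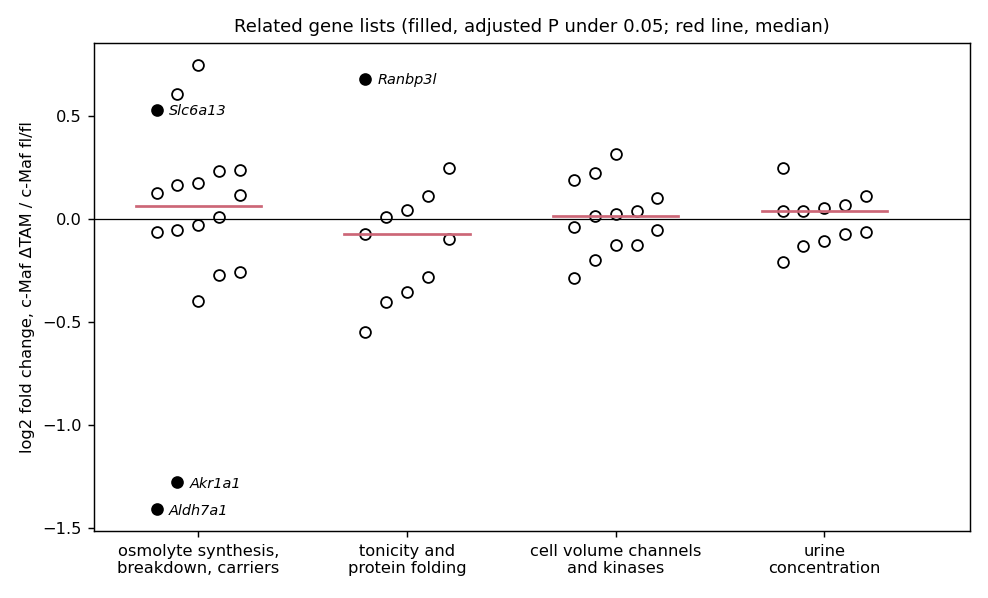
Log2 fold change in c-MafΔTAM relative to c-Maf fl/fl kidneys (y axis) of each tested gene in 4 related lists, with filled points for an adjusted *P* under 0.05 and a red line at the median of each list. The named genes are *Slc6a13* at 0.53, *Aldh7a1* at -1.41, *Akr1a1* at -1.28, and *Ranbp3l* at 0.68, and the medians lie between -0.07 and 0.06.

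Markers of kidney cell types were set beside these results. The 5 markers of proximal segments S1 and S2 summed to 8290 to 11993 CPM in c-MafΔTAM and 13868 to 15909 CPM in control mice, with 3 of 5 lower, namely *Slc5a12* (log2 fold change -1.71), *Slc34a1* (-1.23), and *Slc4a4* (-0.99). The other markers of this list, the albumin receptor genes *Lrp2* (-0.17, adjusted *P* = 0.719) and *Cubn* (-0.03, adjusted *P* = 0.912), did not pass. By qPCR in more mice per genotype, the paper reports lower expression of both receptor genes in c-MafΔTAM kidneys. The lower levels of the 3 markers went in the same direction as those of *Sord*, *Aldh7a1*, and *Akr1a1*, and their part in the levels of the 3 genes was not tested. Summed principal cell markers ranged from 323.3 to 503.5 CPM in c-MafΔTAM and from 315.6 to 563.4 CPM in control mice, so these ranges overlapped. The 4 thin limb markers summed to 803.2 to 903.5 CPM in c-MafΔTAM and 753.3 to 874.7 CPM in control mice, and 1 of them was higher, *Fst* with a log2 fold change of 1.63 (adjusted *P* = 0.0152). *Slc14a2* is known from both the collecting duct and the thin limb, and the part of either in its level was not tested. Of the 6 endothelial markers 1 was lower, *Kdr* with a log2 fold change of -0.37 (adjusted *P* = 0.0450), and the summed erythroid markers were 187.8 to 285.2 CPM in c-MafΔTAM and 204.2 to 348.7 CPM in control mice. No marker passed edgeR's test in the lists for proximal segment S3, thick limb, distal convoluted tubule, intercalated cell, podocyte, macrophage, or erythroid cells, where 0 or 1 marker per list had an unadjusted *P* under 0.05. The S3 marker *Slc7a13* was at 204.2, 263.6, and 324.3 CPM in the low-*Xist* mice (c-MafΔTAM mouse 1, controls 3 and 4) and at 0.411 to 1.08 CPM in the others. *Cyp7b1* and *Atp11a* were also higher in every low-*Xist* mouse than in every high-*Xist* mouse, whereas *Slc5a1* was not. The 4 macrophage markers summed to 73.1 to 82.1 CPM in c-MafΔTAM and 66.9 to 72.0 CPM in control mice, ranges that did not overlap, with 4 of 4 log2 fold changes above 0 and a median of 0.23, and their part in the levels of the osmolyte genes was not tested. Adrenal cortex markers were at or under 0.152 CPM in sum, and adipocyte markers reached 37.4 CPM in control mouse 3.

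The genes whose pattern over the 8 mice was closest to each called member were found by the root mean square distance of log2 CPM after centering each gene, among 17475 genes with a mean of at least 1 CPM. For *Slc6a12* these were *Cdkn1a* (distance 0.333), *Gm45244* (0.373), and *Sfrp5* (0.397). For *Slc6a6* they were *Thnsl1* (0.0965), *Dglucy* (0.105), and *Sult1d1* (0.107). For *Sord* they were *Slc13a1* (0.101), *Slc16a1* (0.102), and *Arhgap10* (0.104). The neighbors of *Slc6a12* lay farther from it than those of the more abundant *Slc6a6* and *Sord* did from theirs.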

How the data were processed

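RNA-Seq counts of whole kidney from 4 c-MafΔTAM and 4 c-Maf fl/fl mice were analysed, 1 library per mouse. The deposited counts are whole reads per gene name, produced by the authors with featureCounts 2.0.1 (file header; the submitters' notes give Subread 2.0.2) on exons of the Ensembl 102 annotation of GRCm38, with no strand, no multi-mapping reads, and no reads on exons of more than 1 gene. The study's methods describe mapping to mm10 in CLC Genomics Workbench, and whether the deposited counts came from that mapping is not stated in the sources used here. No count was normalized by the authors, 0 columns were left unused, and 0 rows named no gene. Libraries had 16649129 to 22990257 counts, and all pairs of 1 genotype differed beyond sampling noise. Labels do not say whether mice shared a litter or day.

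Genes were kept by filterByExpr (20149 of 55367), scaled by TMM, and compared with edgeR 4.0.16 (robust quasi-likelihood test, no covariates, all 8 mice, threshold 0.05) in R 4.3.3, after a check on simulated counts. CPM are TMM-scaled. SEs were derived from each log2 fold change and its F statistic. Ratios used a pseudocount of 0.5. Alternatives used limma 3.58.1, DESeq2 1.42.0, other scalings, filters and tests, *Xist* or replicate number as covariates, and each mouse left out. The members and lists were chosen with earlier results of these data known. Named genes were *Maf*, the members, *Mrps6*, *Xist*, list genes that passed, each list's most abundant gene, marker genes that passed, and the 3 genes nearest each called member. *Psca*, *Lrp2*, *Cubn*, and the markers of proximal segment S3 were named after their values were seen. RefSeq promoters came from a table on GRCm38.p6, and chromosome 18 sequences are not shown.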

Additional observations from a re-analysis of the deposited data

Results flagged for a closer look

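*Slc5a3*, the myo-inositol carrier, had 1 control mouse far from the other controls: c-Maf fl/fl mouse 4 at 531.2 CPM, with the other 3 between 680.5 and 690.1 CPM. Its gap to the nearest control was 0.939 of the group's range, above Dixon's 95% critical value for 4 samples. Of 48 groups of values examined this was the only such mouse, where about 2.4 would be expected by chance. This mouse was also the lowest of all 8 in *Slc6a12*, *Nfat5*, *Slc14a1*, and *Slc14a2*.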

How the results depend on the processing

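Directions of *Slc6a12*, *Slc6a6*, and *Sord* held under all 20 alternatives run, and scaling, filtering, DESeq2, the edgeR exact test, and *Xist* changed none of their calls. The replicate numbers did not pair the mice (correlations of same-numbered mice -0.371, 0.154, -0.11, and -0.335, and 1 mouse closest to its own number). With a replicate block *Slc6a12* was at 1.77 (adjusted *P* = 0.101), *Slc6a6* at 0.62 (0.220), and *Sord* at -0.81 (0.102), which left 0 members higher, 0 lower, 0 higher genes in the synthesis list, and 0 in the tonicity list. Over all genes the block left 129 calls, against 436 without it.

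With 1 mouse left out the log2 fold change was 1.56 to 1.93 for *Slc6a12* and -0.89 to -0.73 for *Sord* (8 of 8 passed each) and 0.54 to 0.69 for *Slc6a6* (4 of 8 passed). *Slc5a3* ranged from 0.16 to 0.36, *Nfat5* from 0.24 to 0.35, *Akr1b3* from -0.12 to 0.64, *Slc14a2* from -0.16 to 0.32, *Hspa4l* from 0.03 to 0.25, *Slc14a1* from 0.24 to 0.83, *Slc6a13* from 0.44 to 0.60, and *Ranbp3l* from 0.58 to 0.79. Members higher numbered 1 to 2 and lower 1, higher genes 0 to 2 in the synthesis list and 0 to 1 in the tonicity list. Without c-MafΔTAM mouse 4, *Akr1b3* reversed to -0.12 and *Slc14a2* to -0.16. Ratio differences ranged from 0.89 to 1.38 for *Slc6a6*, 1.23 to 1.82 for *Akr1b3*, 1.01 to 1.51 for *Slc14a1*, 1.44 to 1.71 for *Slc5a3*, 1.34 to 1.67 for *Nfat5*, 2.34 to 2.83 for *Sord*, 1.42 to 1.88 for *Hspa4l*, and 1.57 to 1.87 for *Slc14a2*. Their permutation *P* values with 7 mice lie at or near the smallest that can be reached and say nothing about stability. An exact permutation test of the ratios within replicate numbers cannot go below *P* = 0.125. With a pseudocount of 5 the differences were 1.35 for *Akr1b3* and 1.10 for *Slc14a1* (adjusted *P* = 0.0571 each in the exact permutation test).

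An *Xist* covariate gave 4 lower genes in the synthesis list and 1 in the cell volume list. The 5 high-*Xist* mice alone gave 2 higher synthesis genes, 0 higher tonicity genes, and 1 lower cell volume gene. The summed urothelium and papilla surface markers as a covariate, an alternative chosen after seeing the data, left 0 higher tonicity genes. *Ranbp3l* then had a log2 fold change of 0.68 (adjusted *P* = 0.0573), and in the high-*Xist* mice 0.76 (adjusted *P* = 0.156). The causes were not tested. Calls over all genes were 886 with DESeq2, 676 with the exact test, 1373 with the *Xist* covariate, 789 in high-*Xist* mice, and 239 to 452 with 1 mouse left out. Among the members *Slc6a12* had the lowest counts, 12 to 111 per mouse.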
